A study of Mus musculus with 12 samples.

Results

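Cytosolic ribosomal proteins were followed through 12 RNA libraries from D2A1, a carcinoma line of the mouse mammary gland. Members were chosen by gene symbol alone: every gene named Rpl or Rps with a number and optional letters, together with Rplp0, Rplp1, Rplp2 and Rpsa, without the S6 kinase genes (Rps6k) and without symbols that carry a pseudogene suffix. This took 91 of 54146 genes. Of these, 46 belong to the core of the large subunit, 31 to the core of the small subunit and 14 to neither. Those 14 are the paralogues and gene copies Rpl10l, Rpl22l1, Rpl36al, Rpl37rt, Rpl39l, Rpl3l, Rpl7l1, Rps12l1, Rps27l, Rps27rt, Rps3a2, Rps3a3 and Rps4l, and Rps19bp1, a binding protein of Rps19 that shares only the name. The annotation lists 5 of them (Rpl37rt, Rps12l1, Rps3a2, Rps3a3 and Rps4l) as processed pseudogenes. Rpl10l and Rpl39l were listed at 0 in all libraries, which left 89 members that passed the filter on low values, at least 1 TPM in 3 libraries. Rps4l and Rpl3l passed it only through the dormant KO libraries, where they were highest.

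Tumour cells expressing a green fluorescent histone were stained with CellVue Claret (CVC), a membrane dye diluted by cell division, injected into the tail vein of young adult female mice, and sorted from the lungs. Cells that kept the dye were labelled dormant and cells that had lost it growing. WT hosts were, by the study's methods, controls with floxed Tgfbr2, and KO hosts lacked Tgfbr2, which encodes a TGF-beta receptor, in myeloid cells, through a Cre driven by the Lysozyme 2 promoter. The 4 groups, written dormant WT, growing WT, dormant KO and growing KO, held 3 libraries each, made from small pools of sorted cells. All WT libraries were in library batch 1 and all KO libraries in library batch 2, so host and batch cannot be told apart, whereas dormant and growing libraries of 1 host were of the same batch.

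Ribosomal proteins are built with ribosomal RNA into a small subunit, which reads the messenger RNA, and a large subunit, which joins amino acids. Their messengers are among the most abundant in dividing cells and typically begin with a run of pyrimidines, the terminal oligopyrimidine tract, through which mTOR and Larp1 adjust their translation and stability. Resting cells usually make fewer ribosomes, so this family is often read as a measure of growth state.

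The 3 dormant KO libraries stood apart from the other 9 and went against their label in part. Marker genes of 10 host cell types (74 of 76 listed genes were in the table) summed to between 10.34% and 11.13% of all TPM in dormant KO, while dormant WT held 1.09% to 1.52%, growing WT 0.681% to 0.744% and growing KO 0.952% to 1.03%. The alveolar type 2 list made up 4.01% to 4.24% of TPM in dormant KO and the erythroid list 5.08% to 5.63%. Spp1, the most abundant gene on the list for the tumour line, lay between 1236 and 1509 TPM in dormant KO and between 28980 and 39951 TPM in the other 9 libraries. The rest of that list did not all follow it. Krt8 was also lower in dormant KO (52.1 to 106.3 TPM, against 152.9 to 381.0 TPM elsewhere). Krt18 (158.5 to 248.7 TPM) overlapped dormant WT (130.6 to 231.1 TPM). Krt7 was higher, at 29.6 to 61.5 TPM against at most 2.18 TPM elsewhere. Epcam reached at most 5.34 TPM and Cdh1 1.88 TPM in any library. No comparison with the dormant KO group can be made without these libraries, and the part of the host transcripts in the differences below was not tested. In pools of cells, fewer cells of a type and less RNA per cell cannot be told apart.

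Promoter sequences show the start sites of these genes. RefSeq start sites on GRCm38.p6 were listed for 67 of the 91 members. A run of at least 8 C or T bases that reached within 20 bases of the start was found in 30 of those 67 members (44.8%), against 20.8% of the first listed starts of all 27025 genes. A start with C followed by 4 pyrimidines was found in 13 (19.4%), against 2.49% of all genes. The letters CCGGAAG, on either strand anywhere in the 300 bases around the start, were present in 25 members (37.3%) and in 9.12% of all genes. The 50 bases from 20 before the start onward are given for 8 members that carry the results below, in the direction of transcription, with the longest pyrimidine run near the start in capitals.
Rps6, chr4:86857338-86857387, minus strand: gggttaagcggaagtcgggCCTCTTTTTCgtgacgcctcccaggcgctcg
Rps27, chr3:90213619-90213668, minus strand: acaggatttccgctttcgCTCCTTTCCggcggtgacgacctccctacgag
Rps12, chr10:23787180-23787229, minus strand: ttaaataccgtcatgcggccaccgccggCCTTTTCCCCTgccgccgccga
Rpl14, chr9:120571497-120571546, plus strand: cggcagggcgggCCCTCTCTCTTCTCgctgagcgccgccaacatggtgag
Rps15, chr10:80292411-80292460, plus strand: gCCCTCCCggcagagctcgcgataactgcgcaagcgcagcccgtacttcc
Rpl41, chr10:128549139-128549188, minus strand: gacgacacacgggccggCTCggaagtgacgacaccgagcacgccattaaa
Rpl5, chr5:107900508-107900557, plus strand: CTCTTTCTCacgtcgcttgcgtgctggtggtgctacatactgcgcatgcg
Rpl37, chr15:5116593-5116642, plus strand: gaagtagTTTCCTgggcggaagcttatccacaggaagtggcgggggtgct
The run spans the start in Rps6, Rps27 and Rpl14, lies 8 bases further in for Rps12, ends 12 bases before the start in Rpl5, and is shorter than 8 bases in Rps15, Rpl41 and Rpl37.

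Levels are given in TPM, in which each transcript is divided by its length and each library scaled to the same total of 1000000. All 77 core members were above 0 in every library, and 80 of the 91 members were at or above 100 TPM in every library. Over the 12 libraries the mean level of a core member ranged from 51.4 TPM for Rpl29 to 5832 TPM for Rps27, with a median of 939.1 TPM. Together the members made up 7.07%, 7.69% and 7.93% of all TPM in dormant WT libraries against 10.38%, 10.02% and 9.87% in the growing WT ones. In KO hosts they took 9.66%, 8.20% and 9.92% when dormant and 10.31%, 9.61% and 10.17% when growing. The dormant WT libraries were below all others, and the dormant KO libraries overlapped the growing KO libraries. Median-ratio scaling sets each library by its median ratio over genes above 0 in all 12 libraries, in place of the total. The median over all genes tested can still differ between groups under it. It changed this order and put dormant KO highest, at 12.53%, where dormant WT had 7.14%, growing WT 8.97% and growing KO 8.94%.

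**Figure D1:**
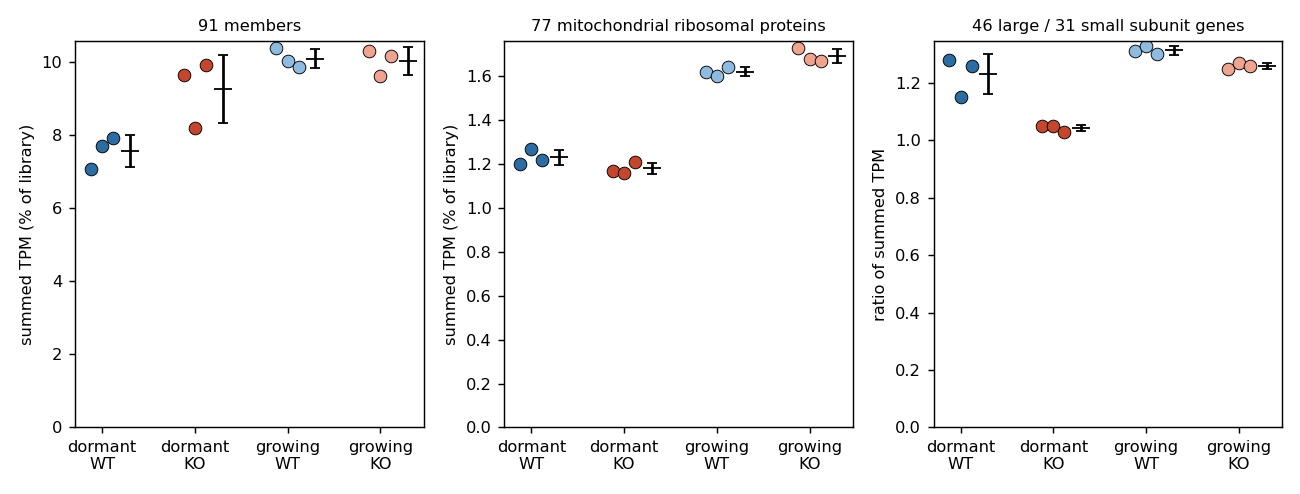
Summed TPM of the 91 members and of 77 mitochondrial ribosomal proteins (percent of the library), and the ratio of summed TPM of 46 large to 31 small subunit genes, with 1 point per library and bars for mean ± SD (n = 3) in each group. The 3 dormant WT libraries have the lowest member sums, and the 3 dormant KO libraries have the lowest subunit ratio, between 1.03 and 1.05.

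The 2 subunits did not keep 1 ratio. Summed TPM of the large subunit over that of the small subunit was 1.05, 1.05 and 1.03 in the dormant KO libraries and 1.25, 1.27 and 1.26 in the growing KO ones. In WT hosts it was 1.28, 1.15 and 1.26 when dormant and 1.31, 1.33 and 1.30 when growing. The dormant KO libraries lay below the other 9. Without Rps27, the most abundant member, the ratio was still lowest there, at 1.30, 1.29 and 1.27, against 1.39 to 1.56 elsewhere. By the median log2 level of large less small subunit genes the groups overlapped, at -0.627, -0.379 and -0.58 in dormant KO and -0.407, -0.35 and -0.442 in growing KO. The large subunit summed to 4.49% ± 0.430 in dormant KO and 5.31% ± 0.179 in growing KO (SD, n = 3), whereas the small subunit summed to 4.30% ± 0.447 and 4.21% ± 0.174.

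Differences between groups are given on the log2(TPM + 1) scale with their standard error and the Benjamini-Hochberg adjusted p of limma over all 13002 genes tested. Calling a gene took an adjusted p of 0.05 or less together with a difference of 1 or more in size, that is a fold of 2. Members are abundant and their errors small (median standard error 0.155 against 0.688 over all genes), so many passed the adjusted p with less than that fold, and both counts are given with the share of all genes that passed in the same direction.

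The dormant WT against growing WT comparison asks how the family differs with growth state in hosts with intact Tgfbr2. Members were lower in dormant WT almost throughout. The dormant WT libraries also had fewer genes above 0, between 11325 and 13242 against 14352 to 14475 in growing WT. Their macrophage markers took 0.0695% to 0.0942% of TPM, against 0.00129% to 0.00245% in growing WT. The part of either in the differences was not tested. The difference was negative for 85 of 89 members, with a median of -0.46 beside -0.35 over all genes. The value over all genes, many of them low, was -0.76 with a pseudocount of 0.1, 0.00 with no filter and 0.04 under quantile normalization (members -0.28), and without dormant WT replicate 1 it was -0.47 beside -0.41 for the members, so the members cannot be set apart from other genes by their median. By the adjusted p alone 31 members fell (34.8%, against 6.51% of all genes) and 0 rose (1.93%). Of those, 2 also passed the fold (2.25%, against 5.67%), and 0 rose past it (1.85%). With no adjustment limma gave 1 member higher and 58 lower at p under 0.05. The 31 became 14 under median-ratio scaling, 16 or 17 without any 1 growing WT library, and the 2 became 8 without dormant WT replicate 3. Both subunits took part, with 19 of 46 large and 10 of 31 small subunit genes lower by the adjusted p.

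Rps15, a small subunit protein needed for export of the subunit from the nucleus, had 469, 507 and 661 TPM in the dormant WT libraries against 1267, 1218 and 1239 TPM in the growing WT ones, with no overlap. It fell by 1.20 (SE 0.14, limma adjusted p = 0.000478). Rpl27, of the large subunit, had 871, 570 and 657 TPM in the dormant WT libraries against 1472, 1363 and 1424 TPM in the growing WT ones, and fell by 1.04 (adjusted p = 0.000976). Under quantile normalization neither passed the fold (Rps15 by a small margin, Rpl27 at -0.84), and Rpl27 also missed it under median-ratio scaling and without dormant WT replicate 2.

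Rps6, the subunit protein that S6 kinases phosphorylate, had 817, 1023 and 878 TPM in the dormant WT libraries against 1618, 1698 and 1599 TPM in the growing WT ones, and it fell by 0.86 (adjusted p = 0.000491). Rplp0, the base of the stalk that recruits elongation factors and a frequent reference gene for quantitative PCR, had 983, 872 and 642 TPM in the dormant WT libraries against 1340, 1416 and 1251 TPM in the growing WT ones, and it fell by 0.70 (adjusted p = 0.0107). The groups of both genes lay apart. Its stalk partner Rplp2 fell by 0.57 (adjusted p = 0.0208), and Rpl3, at the catalytic centre, and Rpl10, a late-joining protein of the large subunit, both fell by 0.62 (adjusted p = 0.04 and 0.0431). Of 18 alternatives the adjusted p passed in all for Rps6, 15 for Rplp0, 11 for Rplp2, 10 for Rpl10 and 7 for Rpl3.

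Rps27, a zinc finger protein of the small subunit, was 1 of the 4 members with a positive difference. It had 5367, 6794 and 5910 TPM in the dormant WT libraries against 5186, 4744 and 4845 TPM in the growing WT ones, and its difference of 0.28 did not pass (adjusted p = 0.0971). Differences of Rplp1 (-0.15), Rpsa (-0.26), Rpl22 (-0.47), Rpl13a (-0.48), Rps4x (-0.49) and Rpl39 (-0.05) did not pass either.

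**Figure D2:**
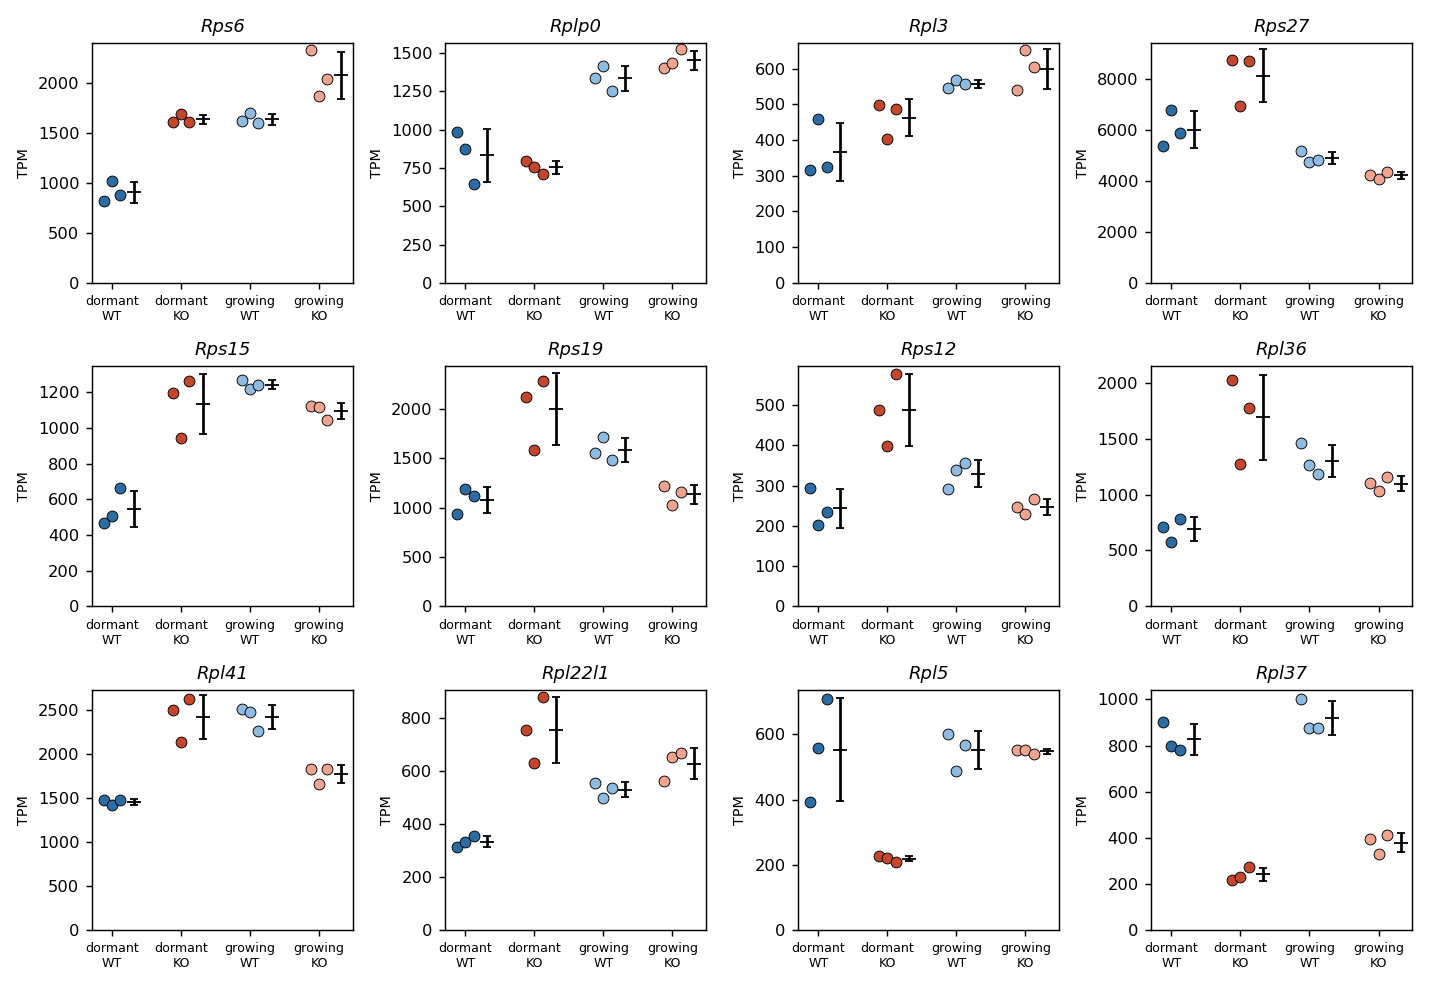
TPM of 12 members in each library (1 point per library, 4 groups of 3), with bars for mean ± SD. Rps6, Rps15 and Rplp0 are lower in dormant WT than in growing WT, Rps27 is highest in dormant KO, and Rpl5 and Rpl37 are lowest there.

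In KO hosts the dormant and growing libraries differed in another way, with members moving in both directions. The median difference was -0.17, beside -0.32 over all genes. By the adjusted p alone 12 members rose (13.5%, against 8.67% of all genes) and 25 fell (28.1%, against 10.5%), and 3 rose (3.37%, against 8.31%) and 2 fell (2.25%, against 9.48%) past the fold. The 12 became 7 without dormant KO replicate 1 or 3 or growing KO replicate 2 or 3 and 8 without growing KO replicate 1, and the 25 became 16 without growing KO replicate 3. The sign of the median depended on the scaling. Median-ratio scaling, which moved the median of all genes to 0.10, gave a member median of 0.42, with 31 members higher and 1 lower by the adjusted p and 14 and 0 past the fold. Relative to all genes, the member median was 0.15 as deposited, 0.32 under that scaling, -0.01 with a pseudocount of 5 and -0.17 with no filter.

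Rpl5, a large subunit protein that with Rpl11 can bind Mdm2 when ribosome assembly is disturbed, showed the lowest core difference. It had 226, 220 and 210 TPM in the dormant KO libraries against 551, 554 and 539 TPM in the growing KO ones, with no overlap, and fell by 1.32 (SE 0.19, limma adjusted p = 0.0006). It kept the adjusted p but not the fold under median-ratio scaling (-0.73) and quantile normalization. Rplp0 went the same way, from 1404, 1437 and 1525 TPM in growing KO to 794, 759 and 711 TPM in dormant KO, and it fell by 0.95 (adjusted p = 0.0006), but by 0.35 under median-ratio scaling (adjusted p = 0.124). Rps19bp1 fell by 1.59 (adjusted p = 0.0101), which was lost under median-ratio scaling and quantile normalization.

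A rise by the adjusted p was seen in 6 of 31 small subunit genes, 3 of 46 large subunit genes and 3 members outside the core. Rps27 had 8765, 6956 and 8743 TPM in the dormant KO libraries against 4229, 4080 and 4370 TPM in the growing KO ones, a difference of 0.94 (adjusted p = 6.27e-05). Rps12 was at 487, 399 and 578 TPM against 247, 228 and 267 TPM (0.96, adjusted p = 0.00481). Both groups were apart in each of these genes, and both differences were under the fold as deposited. Rps12 passed it in 5 of 18 alternatives (up to 1.56) and Rps27 in 3 (up to 1.54), while quantile normalization moved Rps27 to 0.25 (adjusted p = 0.194). Rplp1 passed with 0.47 (adjusted p = 0.0368), in 12 of 18 alternatives. Rps6 (-0.34, adjusted p = 0.039) and Rps4x (-0.55, adjusted p = 0.0306) passed in 8 and 9, and median-ratio scaling turned them to 0.26 and 0.05, which did not pass.

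The 3 members called higher were all outside the core. Rps4l, a pseudogene copy of Rps4x, had 15.8, 11.3 and 45.3 TPM in the dormant KO libraries against 9.81, 0.07 and 0 TPM in the growing KO ones, and outside dormant KO it was above 1 TPM in 2 of 9 libraries. Rpl3l, the striated muscle paralogue of Rpl3, reached 1.88, 1.20 and 2.43 TPM in the dormant KO libraries and was listed at 0 in growing KO. Since these 2 genes were tested only through the group where they are high, their calls support no difference. Rps27rt, a retrocopy of Rps27, had 112, 59.7 and 107 TPM in the dormant KO libraries against 43.9, 36.9 and 46.1 TPM in the growing KO ones (1.07, adjusted p = 0.0347). The Rps27rt call was lost without dormant KO replicate 1 or 3 or any growing KO library. Since RSEM divides reads between near-identical sequences by estimate, the levels of such copies are uncertain.

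**Figure D3:**
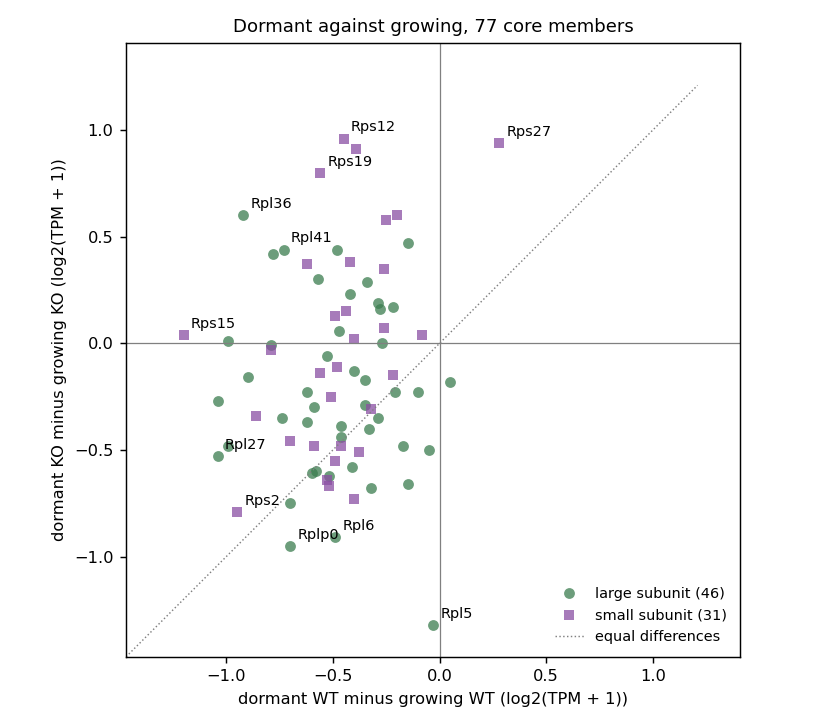
Difference of dormant from growing libraries for 77 core members, in WT hosts (x axis) and KO hosts (y axis), both on the log2(TPM + 1) scale, with large subunit genes as circles, small subunit genes as squares and a dotted line of equal differences. Nearly all genes lie left of 0 in WT hosts, where they are lower in dormant cells, whereas in KO hosts they spread from Rpl5 (-1.32) to Rps12 (0.96).

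The interaction subtracts the state difference of WT hosts from that of KO hosts and tests whether the 2 differences are unequal. By the adjusted p alone 17 members had a higher difference in KO hosts (19.1%, against 6.35% of all genes) and 1 a lower one (1.12%, against 4.05%). Past the fold these were 6 (6.74%, against 6.18%) and 1 (1.12%, against 3.91%). Under median-ratio scaling the counts past the fold were 26 and 0, where the medians were 0.81 over members and 0.52 over all genes. In the fit without dormant WT replicate 1 there were 2 members lower. The 17 became 37 under median-ratio scaling and 11 without dormant KO replicate 3. The small subunit accounted for 11 of the 17. The median over members was 0.31, beside 0.16 over all genes, but 0.33 beside 0.32 without dormant WT replicate 1 and 0.31 beside 0.61 with a pseudocount of 0.1.

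Rpl36 had the largest called interaction among the members, 1.52 (SE 0.24, limma adjusted p = 0.00267). It had 710, 578 and 785 TPM in the dormant WT libraries against 1462, 1260 and 1183 TPM in the growing WT ones. In KO hosts dormant libraries had 2025, 1270 and 1774 TPM against 1103, 1032 and 1159 TPM in growing ones. It was thus lower in dormant than growing cells in WT hosts and higher in KO hosts. Rps12 (1.41, adjusted p = 0.00778), Rps19, a protein mutated in Diamond-Blackfan anaemia (1.36, adjusted p = 0.00177), Rps20, of the head of the small subunit (1.30, adjusted p = 0.0168), and Rps15 (1.24, adjusted p = 0.0029) followed.

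Rps19 had 935, 1188 and 1122 TPM in the dormant WT libraries against 1550, 1722 and 1482 TPM in the growing WT ones, whereas KO hosts gave 2124, 1589 and 2286 TPM when dormant against 1219, 1022 and 1160 TPM when growing. Rps20 had 147, 179 and 190 TPM in the dormant WT libraries against 250, 205 and 219 TPM in the growing WT ones, and 303, 235 and 335 TPM in the dormant KO libraries against 163, 130 and 168 TPM in the growing KO ones. For both genes the dormant KO libraries were above the dormant WT and growing KO libraries without overlap. The Rps20 call was lost without growing WT replicate 1 (adjusted p = 0.054) or without dormant KO replicate 3. Rpl5 was the member with a lower difference in KO hosts, -1.29 (adjusted p = 0.0112), which median-ratio scaling moved to -0.78 (adjusted p = 0.158).

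The KO against WT comparison within dormant libraries asks how the hosts differ at the same label, across batches. Members were higher in dormant KO for 69 of 89, with a median of 0.44 beside 0.17 over all genes. Without dormant WT replicate 1 these were 0.38 and 0.36, and with a pseudocount of 0.1 they were 0.44 and 0.58. By the adjusted p alone 39 members rose (43.8%, against 13.7% of all genes) and 8 fell (8.99%, against 10.2%). Past the fold 9 rose (10.1%, against 12.9%) and 2 fell (2.25%, against 9.39%). Without dormant KO replicate 2, 14 rose past the fold, and under median-ratio scaling 39 rose and 1 fell past it. That scaling moved the medians to 0.95 over members and 0.53 over all genes. The shares of all genes under it are not given. The 39 by the adjusted p became 65 under that scaling, 23 with array weights and 20 when only these groups were fitted, and the 8 became 2 to 4 in those fits and without dormant KO replicate 1 or 2. The small subunit rose in 18 of 31 genes and the large subunit in 17 of 46 by the adjusted p, with 1 and 7 genes lower.

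Rps6 was at 1615, 1693 and 1615 TPM in dormant KO, above the dormant WT libraries without overlap (0.86, SE 0.10, limma adjusted p = 0.000103). Rpl14 had the largest core rise. It had 617, 578 and 717 TPM in the dormant KO libraries against 328, 130 and 237 TPM in the dormant WT ones (1.55, adjusted p = 0.00149). Rpl36 rose by 1.27 (adjusted p = 0.000231) and Rpl17, close to the exit of the peptide tunnel, by 1.19 (adjusted p = 0.0024), although Rpl17 missed the fold without dormant WT replicate 1 (0.91). Rps4l and Rpl3l, also among the 9, were tested only through dormant KO. In dormant WT Rps4l was listed at 0 in all libraries, and Rpl3l at 0 in 2 libraries and at 0.36 TPM in the third. Others called higher were Rpl22l1 (1.17), Rps15 (1.06) and Rps12, which was just past the fold. Rps12 and Rps15 missed the fold in 6 and 3 of 18 alternatives, among them 4 and 2 that left out a library.

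Rplp1 (0.52, adjusted p = 0.0191), Rplp2 (0.83, adjusted p = 0.000721), Rpl13a (0.76, adjusted p = 0.00785), Rpl22 (0.72, adjusted p = 0.0453) and Rps27 (0.44, adjusted p = 0.0066) also rose by the adjusted p, while Rpl39, which lines the peptide tunnel, fell by 0.80 (adjusted p = 0.0298). The Rpl39 difference passed in 9 of 18 alternatives and was -0.28 under median-ratio scaling (adjusted p = 0.464), and Rpl22 and Rplp1 passed in 10 and 13. Rplp0 (-0.12), Rpsa (0.05), Rpl3 (0.35), Rpl10 (0.36) and Rps4x (0.37) did not pass.

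Rpl37 and Rpl5 fell past the fold. Rpl37, a zinc-binding protein of the large subunit, had 217, 229 and 274 TPM in the dormant KO libraries against 903, 796 and 780 TPM in the dormant WT ones, and it fell by 1.78 (adjusted p = 6.75e-06). Rpl5 fell by 1.29 (adjusted p = 0.000504), from 392, 559 and 710 TPM in dormant WT, but missed the fold under median-ratio scaling (-0.78).

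Between growing libraries of KO and WT hosts 1 member was called. The median difference was 0.05 (0.02 over all genes), with 0 members called higher (0.715% of all genes) and 1 lower (1.12%, against 0.261%). At p under 0.05 with no adjustment limma gave 10 higher and 14 lower. By the adjusted p alone 1 rose (1.12%, against 0.738%) and 3 fell (3.37%, against 0.315%), which became 9 and 13 with array weights and 7 and 13 when only these groups were fitted. Under median-ratio scaling 0 rose and 1 fell. Without any 1 of the growing libraries 0 rose and 1 or 2 fell. The gene called lower was again Rpl37, with 392, 331 and 413 TPM in the growing KO libraries against 1003, 876 and 877 TPM in the growing WT ones, and it fell by 1.28 (limma adjusted p = 0.00122). Its KO libraries, batch 2, were thus below its WT libraries, batch 1, in both states, and the call held in every alternative tried. Rpl35 (-0.72, adjusted p = 0.0124), Rpl41 (-0.45, adjusted p = 0.03) and Rps18 (0.56, adjusted p = 0.0201) passed the adjusted p only, in 13, 9 and 9 of 18 alternatives. None of the 12 anchor genes, Rplp0 at 0.12 and Rps6 at 0.34 among them, passed.

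**Figure D4:**
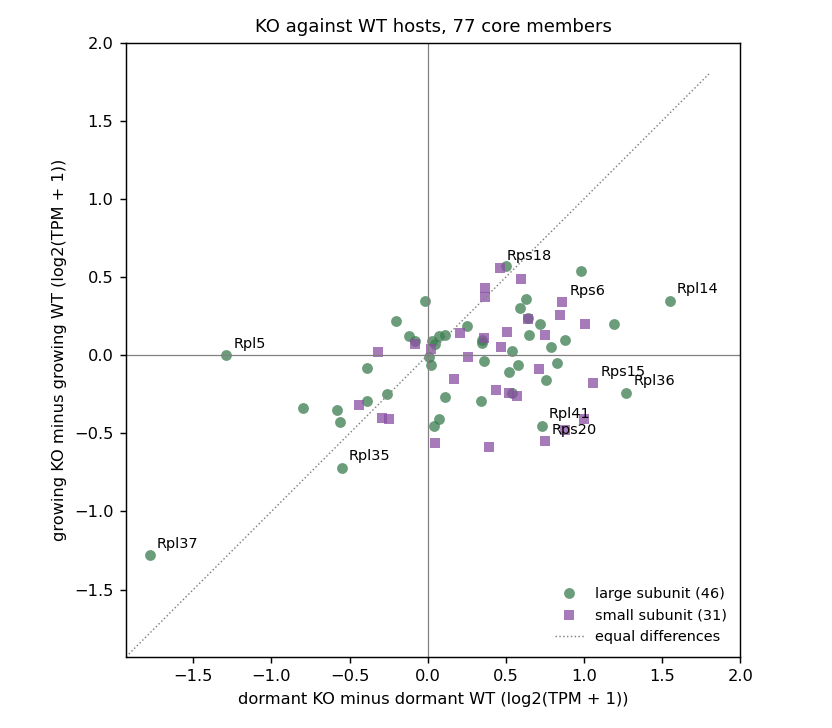
Difference of KO from WT hosts for 77 core members, in dormant libraries (x axis) and growing libraries (y axis), both on the log2(TPM + 1) scale, with large subunit genes as circles and small subunit genes as squares. Rpl37 is low in both (-1.78 and -1.28), Rpl5 lies at -1.29 in dormant libraries, and 59 of the 77 genes lie right of 0 on the x axis.

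The 2 comparisons of hosts share no libraries. Across the 77 core members their differences had a Pearson correlation of 0.44, with the same sign in 45 genes, and the 2 comparisons of states, which also share none, had a correlation of 0.12 with the same sign in 49. Profiles of the core members on the log2 scale were most alike within growing WT (mean pairwise correlation 0.994 over 77 genes), growing KO (0.993) and dormant KO (0.985), and less so within dormant WT (0.939). Between dormant WT and dormant KO the mean was 0.859, the lowest between any groups, and between growing WT and growing KO it was 0.957. These correlations run across genes that share libraries, and are descriptions.

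**Figure D5:**
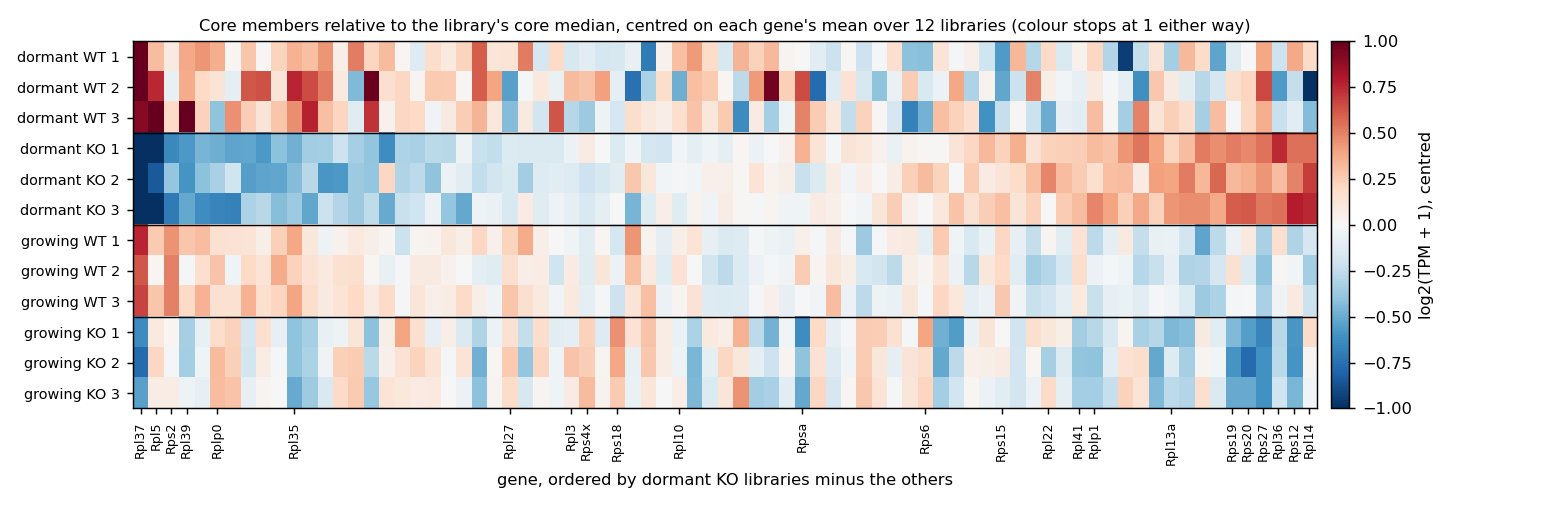
Level of each of 77 core members (columns) relative to the median core member of the same library, centred on the mean of that gene over 12 libraries, in each library (rows), with a selection of genes labelled, on the log2(TPM + 1) scale, with red above and blue below (the colour scale stops at 1 either way). Dormant KO libraries share a profile that runs from low Rpl37 and Rpl5 at the left to high Rps12 and Rpl14 at the right, and Rpl37 is high in all 6 WT and low in all 6 KO libraries.

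Coding length went with the state differences inside the family. Across the 77 core members the Spearman correlation of coding length with the difference was -0.44 for dormant WT against growing WT and -0.37 for dormant KO against growing KO, beside 0.17 and 0.01 over 11426 genes with a coding length. The 38 shorter members, up to 456 bases, had a median difference of -0.35 in WT hosts and -0.01 in KO hosts, and the 39 longer ones of -0.56 and -0.35. For the KO against WT difference in dormant libraries the correlation was -0.01.

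Over the 12 libraries, the members most alike to Rplp0 by Pearson correlation of log2 levels were Rpl13 (0.87), Rpl19 (0.87), Rps27a (0.83), Rpl4 (0.83) and Rps2 (0.81). Those libraries fall into 4 groups, so the values describe group differences as much as single libraries.

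Paralogues were set beside their parents. Rpl22l1, which can replace Rpl22, had 755, 628 and 876 TPM in the dormant KO libraries against 314, 330 and 354 TPM in the dormant WT ones, a rise of 1.17 (adjusted p = 0.000143) that was called in all alternatives. Its parent Rpl22 was at 242, 246 and 206 TPM and 160, 152 and 111 TPM, so the paralogue was the more abundant in all 12 libraries. Rpl36al was below growing WT in dormant WT (-0.58, adjusted p = 0.00129), and its 3 libraries lay below those of growing WT. Dormant KO lay above dormant WT (0.53, adjusted p = 0.000531) and below growing KO (-0.27, adjusted p = 0.0332), the last in 8 of 18 alternatives and with the other sign under median-ratio scaling (0.32). Rps27l, a p53 target, did not pass in any comparison, at 1617 TPM ± 477.6 in dormant WT, 2080 ± 281.7 in dormant KO, 1809 ± 76.8 in growing WT and 2141 ± 133.2 in growing KO (SD, n = 3). Rpl7l1, Rps3a2, Rps3a3, Rps12l1 and Rpl37rt were not called in any comparison, and the last 3 reached at most 30.4 TPM in any library.

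Pseudogenes of the family, 254 by their names, together took 0.225% to 0.269% of TPM in dormant WT, 0.305% to 0.358% in dormant KO, 0.376% to 0.410% in growing WT and 0.500% to 0.508% in growing KO. Rps2-ps10, picked after its values were seen, was above its parent Rps2 in all 12 libraries, at means of 1485, 1656, 3033 and 3251 TPM against 640.9, 535.4, 1231 and 927.9 TPM in the order dormant WT, dormant KO, then growing WT, growing KO. Levels of Rps2 therefore depend on how reads were divided between the pair.

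Proteins of the ribosome outside the naming rule were measured beside the members. Fau, a fusion of a ubiquitin-like protein with a small subunit protein, was lower in dormant than growing cells by 0.40 in WT hosts (adjusted p = 0.00678) and 0.39 in KO hosts (adjusted p = 0.00256). Gnb2l1, the scaffold Rack1, was lower by 0.55 in KO hosts (adjusted p = 0.0306). Median-ratio scaling turned the differences in KO hosts to 0.20 for Fau (adjusted p = 0.218) and 0.04 for Gnb2l1 (adjusted p = 0.908). In WT hosts Fau did not pass under that scaling (-0.32, adjusted p = 0.088) or quantile normalization (-0.24, adjusted p = 0.0898). Neither passed in KO against WT hosts at either state.

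Mitochondrial ribosomal proteins, which translate in mitochondria, took a smaller share of TPM in dormant libraries of both hosts. The 77 genes took 1.20% to 1.27% of TPM in dormant WT, 1.16% to 1.21% in dormant KO, 1.60% to 1.64% in growing WT and 1.67% to 1.73% in growing KO, so both dormant groups lay below both growing groups as deposited. Under median-ratio scaling this held for dormant WT (1.03% to 1.30%), whereas dormant KO (1.44% to 1.67%) overlapped growing WT (1.41% to 1.47%) and growing KO (1.46% to 1.60%). By the adjusted p 9 fell in dormant WT (11.7%, against 6.51% of all genes) and 18 in dormant KO (23.4%, against 10.5%), each against growing cells, and 0 rose in either (limma gave 0 and 2 higher at an unadjusted p under 0.05).

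Other translation genes with pyrimidine starts, a list of 16, fell in 6 members in WT hosts (37.5%, against 6.51% of all genes) and 7 in KO hosts (43.8%, against 10.5%) by the adjusted p, with 0 rising in either (also 0 at an unadjusted p under 0.05 by limma). Past the fold 0 fell in WT hosts (5.67% of all genes), where limma gave 7 lower at an unadjusted p under 0.05, and 2 in KO hosts (12.5%, against 9.48%). The elongation factor subunit Eef1d was lower in dormant than growing cells by 0.95 in WT hosts (adjusted p = 0.00578) and by 1.78 in KO hosts (adjusted p = 3.18e-05). Naca and Btf3, the nascent chain complex that meets the new peptide at the ribosome, were higher in dormant KO than dormant WT by 0.89 and 0.96 (adjusted p = 0.00195 and 0.0145), while Eif3e and Eif3h, of an initiation factor, were lower by 0.96 and 0.97 (adjusted p = 0.00619 and 0.00566). In that comparison 2 of the list were higher (12.5%, against 13.7% of all genes) and 3 lower (18.8%, against 10.2%).

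Among 16 genes that control translation, 5 fell in dormant KO against dormant WT by the adjusted p (31.2%, against 10.2% of all genes) and 4 past the fold (25%, against 9.39%). By the adjusted p 0 rose (13.7% of all genes), and limma gave 2 higher and 8 lower at an unadjusted p under 0.05. Eif4e, which binds the cap of messengers, had 82.3, 61.0 and 64.6 TPM in the dormant KO libraries against 377, 271 and 230 TPM in the dormant WT ones, and fell by 2.04 (adjusted p = 5.82e-05). Its inhibitor Eif4ebp1 was at 62.0, 99.9 and 115 TPM and 396, 315 and 223 TPM, and it fell by 1.75 (adjusted p = 0.000478). The S6 kinase gene Rps6kb1 fell by 3.25 (adjusted p = 0.00244), and Larp1 and the mTOR activator Rheb fell by 1.53 (adjusted p = 0.024) and 0.86 (adjusted p = 0.0412). The genes of these lists were not refitted under other settings. In growing KO against growing WT, 0 of the 16 passed in either direction (1 was higher and 2 lower by limma at an unadjusted p under 0.05).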

How the data were processed

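Messenger RNA was profiled in the 12 D2A1 libraries. The authors trimmed reads with Cutadapt, aligned them to mm10 with STAR 2.5.2b and quantified genes by RSEM against GENCODE M12. Versions of Cutadapt and RSEM differ between the methods and the submitters' notes. The methods name a full-length protocol for small inputs, the labels a TruSeq mRNA kit. The deposited values are TPM, scaled by the authors to the same total in each library, so depth is unknown and no counting interval was given. A further 30 columns matched no labelled sample and were not used. Genes reaching 1 TPM in 3 or more libraries entered limma 3.58.1 (R 4.3.3) on log2(TPM + 1), 1 mean per group, eBayes with a trend, two-sided, Benjamini-Hochberg over 13002 genes. The study describes each group as 3 mice, but neither it nor the labels tie libraries to animals or say whether dormant and growing libraries share mice, and p-values measure the spread between these libraries. Up to 5 called members per direction were named, beside 12 anchor members and all paralogues. Others, such as Rpl35, Rpl41 and Rps18, were chosen after their values were seen. Some named items are not reported here. Members and lists were chosen with earlier results of these data known. Coordinates and coding lengths are from GENCODE M21 (GRCm38, the assembly of mm10), promoters from RefSeq (GRCm38.p6). Scripts were tested on simulated data. Alternatives covered pseudocount, filter, scaling, pseudogenes, weights, groups fitted, a replicate block and each library left out; rescaling without host marker genes was chosen after seeing the data.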

Additional observations from a re-analysis of the deposited data

Results flagged for a closer look

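For 7 members the dormant against growing difference was unequal in KO and WT hosts by limma's interaction test, past both the adjusted p and the fold, 6 with a higher difference in KO hosts (6.74%, against 6.18% of all genes) and 1 with a lower one (1.12%, against 3.91%), shares near or below those of all genes. The interaction was positive for Rpl36 (1.52, adjusted p = 0.00267), Rps12 (1.41, adjusted p = 0.00778), Rps19 (1.36, adjusted p = 0.00177), Rps20 (1.30, adjusted p = 0.0168), Rps15 (1.24, adjusted p = 0.0029) and Rpl41 (1.17, adjusted p = 0.000178), and negative for Rpl5 (-1.29, adjusted p = 0.0112). Rpl41, which encodes the shortest member, had 1472, 1416 and 1474 TPM in the dormant WT libraries against 2511, 2471 and 2256 TPM in the growing WT ones. In KO hosts its dormant libraries were the higher ones, at 2493, 2132 and 2617 TPM against 1830, 1651 and 1828 TPM, with no overlap between states in either host. All 7 interactions include the dormant KO libraries, in which host marker genes summed to at least 10.34% of TPM, and the part of those transcripts was not tested.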

How the results depend on the processing

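No called member changed sign, whereas the median member difference of dormant KO from growing KO turned from -0.17 to 0.42 under median-ratio scaling. That scaling moved the counts of called members to 39 higher and 1 lower in dormant KO against dormant WT, 14 and 0 in dormant KO against growing KO, 26 and 0 for the interaction, and 1 lower in dormant WT against growing WT. Under it the medians over all genes were 0.53, 0.10, 0.52 and -0.28 in the same order. Quantile normalization called 0 lower in either comparison of states, and rescaling over non-members called 4 lower in dormant WT. Rescaling without host marker genes, chosen after seeing the data, called 6 higher in dormant KO against growing KO and 12 for the interaction. With no minimum difference the counts were 39 and 8, 1 and 3, 31 lower, 12 and 25, and 17 higher, in the order of dormant hosts, growing hosts, states in WT, states in KO and interaction. Summed levels moved to 12.53% (dormant KO), 8.97% (growing WT) and 8.94% (growing KO) under median-ratio scaling, to 9.82% in growing WT under quantile normalization, to 8.18%, 10.21%, 11.22% and 11.15% over non-members (dormant WT, dormant KO, growing WT, growing KO), to 10.48% and 10.53% in growing WT and KO with pseudogenes summed, and to 10.38% in dormant KO without host marker genes. The cause was not tested.

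Leaving out 1 library gave 6 to 14 members higher (14 without dormant KO replicate 2) and 2 to 3 lower in dormant KO against dormant WT, 2 to 8 lower in dormant WT against growing WT (8 without dormant WT replicate 3), 0 to 6 higher and 2 lower in dormant KO against growing KO (6 without dormant KO replicate 2; 0 without dormant KO replicate 1 or 3 or growing KO replicate 2; 1 without growing KO replicate 1 or 3), 5 to 9 higher and 1 to 2 lower for the interaction (2 without dormant WT replicate 1), and 1 lower and 0 higher in growing KO against growing WT. Summed levels stayed between 7.38% and 7.81%, 8.93% and 9.79%, 9.94% and 10.20%, and 9.89% and 10.24%, in the order dormant WT, dormant KO, growing WT, growing KO. Deviations of same-numbered dormant and growing libraries had correlations of -0.012 to 0.021. In KO hosts these were 0.011 to 0.021, against -0.018 to -0.001 for libraries of unlike number. In WT hosts they were -0.012 to 0.014, against -0.011 to 0.019. Values this near 0 cannot tell whether the numbers pair libraries or whether mice were shared. The replicate block left 1 member, Rpl3l, called higher in dormant KO against growing KO. Under it Rps27rt and Rps4l had adjusted p = 0.055 and 0.0538 by limma. With 3 libraries a group, TPM without depth and host confounded with batch, small differences cannot be resolved.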
